A study of Homo sapiens with 6 samples.

Results

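Mitochondrial carriers of the SLC25 family were followed in RPE1 cells, an immortalized, non-transformed human retinal pigment epithelial line, made null for LATS1 and LATS2 by CRISPR-Cas9 editing. These Hippo pathway kinases restrain the coactivators YAP and TAZ. The cells, kept in medium with 10% serum, received MK5 siRNA (siMK5, 3 libraries) or control siRNA (siCon, 3 libraries) and were harvested after 48 h. MK5 is a protein kinase encoded by MAPKAPK5. Both groups carry the LATS1 and LATS2 inactivation, and whether the cells are 1 clone or a pool is not given in the sources used here. The carriers are the genes whose symbol is SLC25A followed by a number and whose mean count over the 6 libraries was at least 10. The deposited table of 36884 genes holds 47 such symbols, of which 41 met this minimum. SLC25A27 lay just inside it with a mean of 10.8 counts and SLC25A41 just outside with 9.5. SLC25A2, SLC25A31, SLC25A47, SLC25A48 and SLC25A52 also fell below it, with no library above 2 counts.

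SLC25 proteins sit, with few exceptions, in the mitochondrial inner membrane and exchange nucleotides, phosphate, carboxylic acids, amino acids and cofactors between the matrix and the cytosol. Their genes lie in the nucleus, and their products, made in the cytosol, reach the membrane through the TOM and TIM22 import complexes. In epithelial cells in culture they supply respiration with ADP and phosphate, export citrate for lipid synthesis, and carry the reducing equivalents of the malate-aspartate shuttle.

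Library totals lay between 27188074 and 28236773 counts, and levels are given as CPM, counts scaled to a common total after TMM, a method that centres most genes between libraries. A change is the log2 fold change of siMK5 over siCon ± its standard error in edgeR's quasi-likelihood model with 3 libraries per group, and "rose by" and "fell by" give its size on the log2 scale. A gene passed where its Benjamini-Hochberg adjusted p over all 13431 genes tested was under 0.05. MAPKAPK5 (ENSG00000089022) was at 17.4, 14.1 and 16.2 CPM in siMK5 replicates 1, 2 and 3 and at 35.6, 29.05 and 31.3 CPM in siCon replicates 1, 2 and 3, a change of −1.01 ± 0.14 on the log2 scale (edgeR adjusted p = 0.00169). Among 10 pigment epithelium markers, OTX2, MITF, KRT8 and KRT18 were clearly counted, and RPE65, RLBP1 and TYR stayed at or below 0.0737 CPM in every library. PMEL (−1.89), MITF (−1.09), KRT8 (−0.83) and KRT18 (−0.74) fell, 4 of 6 tested markers, beside 23.7% of all tested genes called lower. Of 8 markers of other cell types, PECAM1 and EPCAM were at 0 in every library, COL1A1 rose by 1.83, and the other 5 were at or below 0.46 CPM. These 8 summed to between 132 and 294 CPM in siMK5 and between 40.3 and 68.4 CPM in siCon, nearly all of it COL1A1, and the part of these shifts in the carriers' values was not tested. RNA per cell and the number of cells of a kind cannot be told apart in such bulk libraries. The replicates are described by the submitters as biological, with no culture or date named, so p-values measure the spread between these libraries.

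Of the 41 carriers, 40 passed the filter on low counts and were tested, all but SLC25A27. After MK5 siRNA 5 carriers rose, 11 fell and 24 did not pass. This is 12.5% higher and 27.5% lower, beside 22.5% of all tested genes called higher and 23.7% called lower, and 40% of carriers called beside 46.2% of all tested genes. The share of carriers called in either direction was thus near that of genes at large, while with these 6 libraries a smaller share was called higher. The carriers' median log2 fold change was −0.16, against 0.00031 for all tested genes, and the median size without sign was 0.42 against 0.53. The 3 libraries of siMK5 did not overlap with the 3 of siCon in 20 of the 40 carriers, 50%, beside 60.4% of all tested genes.

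**Figure D1:**
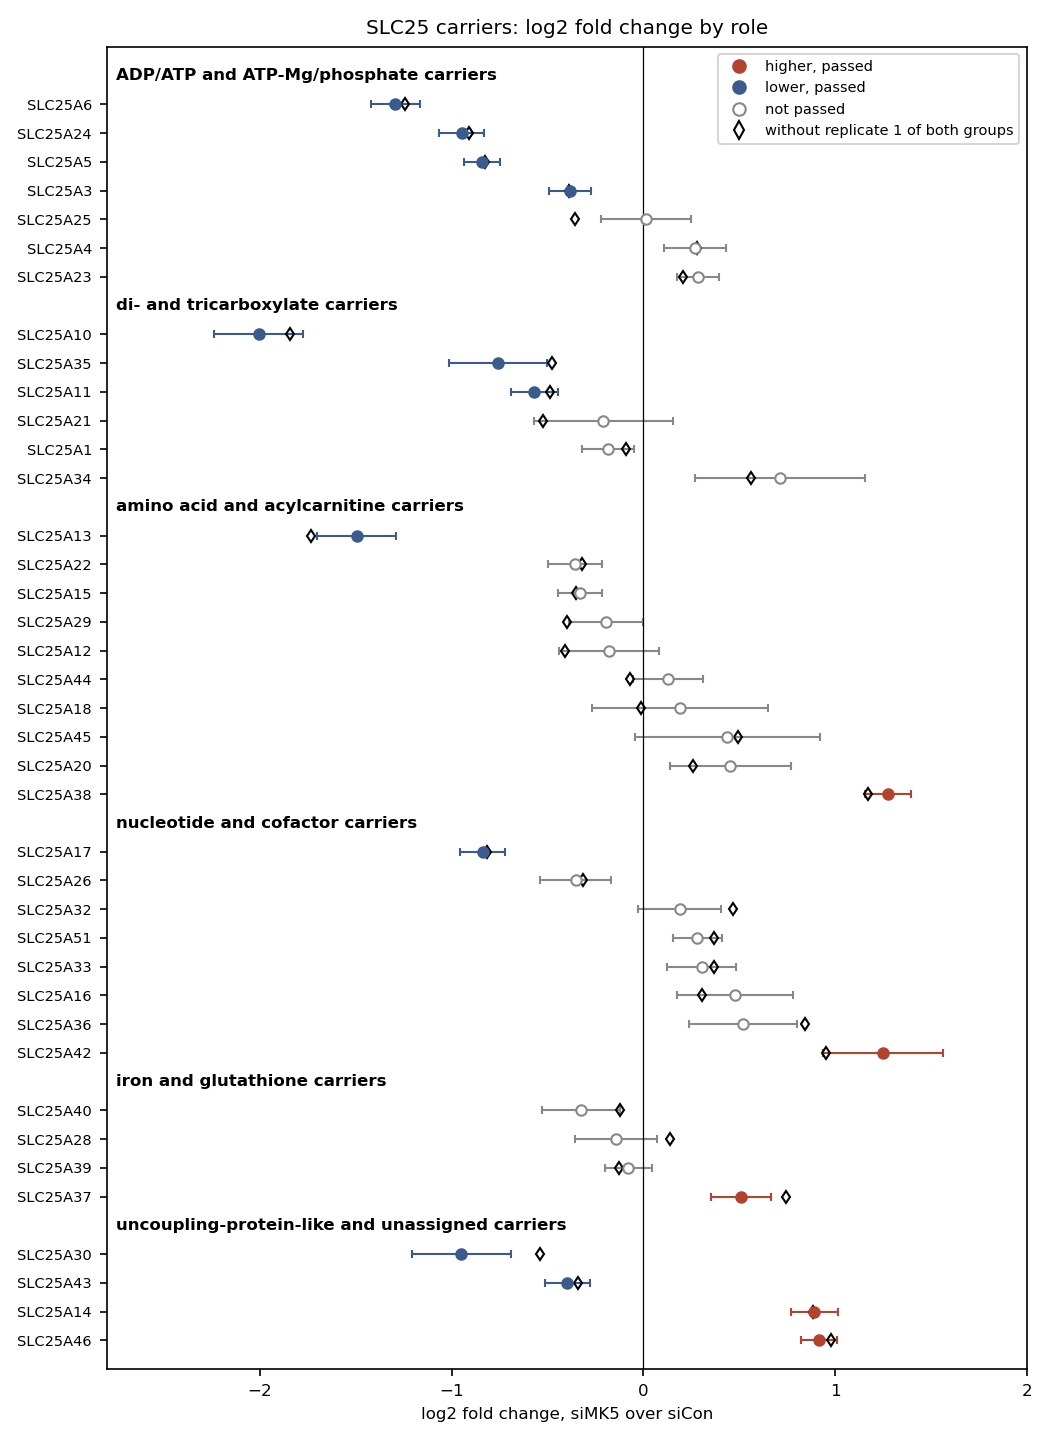
Log2 fold change, siMK5 over siCon, of 39 of the 40 tested carriers (x axis) ordered by role (y axis). Circles and bars show edgeR's estimate ± SE over all 6 libraries, filled where the gene passed, and open diamonds show the estimate without replicate 1 of both groups. SLC25A10 and SLC25A13 lie farthest to the left and SLC25A38 and SLC25A42 farthest to the right.

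Replicate 1 of siCon stood apart from siCon replicates 2 and 3, and this touches many of the values below. Its level, on log2(CPM + 0.5), lay more than 1.5-fold from the mean of the other controls in 16 of 41 carriers, 39% of them, beside 31.7% of all tested genes. It was lower in 10 carriers, SLC25A12, SLC25A13, SLC25A16, SLC25A18, SLC25A20, SLC25A29, SLC25A34, SLC25A42, SLC25A44 and SLC25A45. It was higher in 6, among them SLC25A28, SLC25A30, SLC25A32, SLC25A36 and SLC25A40. Replicate 1 of siMK5 lay this far from its own group in SLC25A45 only. The 13 mitochondrially encoded genes summed to 13566, 16149 and 18889 CPM in siMK5 replicates 1, 2 and 3 and to 10917, 18022 and 15891 CPM in siCon, lowest in siCon replicate 1 too. The part of this difference in the carriers' values was not tested.

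Without siCon replicate 1, 11 carriers rose and 16 fell of 41 tested, beside 32.3% and 32.1% of 13774 genes (64.4% in either direction). Without replicate 1 of both groups 15 rose and 17 fell of 41, beside 37.9% and 37.8% of 13690 genes (75.8% in either direction). All 16 carriers called with 6 libraries kept their call and direction in both fits. Without replicate 1 of both groups another 16 carriers passed, 10 of them upward. Those that rose were SLC25A4, SLC25A16, SLC25A20, SLC25A23, SLC25A27, SLC25A32, SLC25A33, SLC25A36, SLC25A45 and SLC25A51. Those that fell were SLC25A12, SLC25A15, SLC25A22, SLC25A25, SLC25A26 and SLC25A29. edgeR's common biological coefficient of variation was 21.2% with all libraries, 10.2% without siCon replicate 1 and 4.63% without replicate 1 of both groups. Both fits leave out the library that stood apart and use fewer libraries, so their smaller standard errors and added calls may be too optimistic. Values given below without replicate 1 are to be read with this limit.

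**Figure D2:**
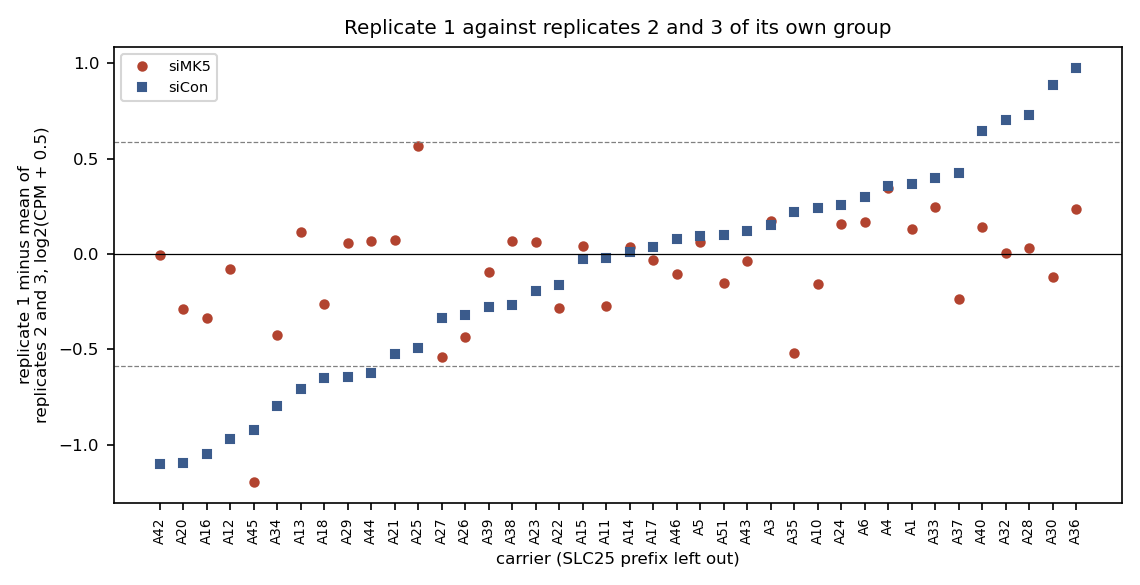
Replicate 1 minus the mean of replicates 2 and 3 of the same group, on log2(CPM + 0.5) (y axis), for 40 of the 41 carriers (x axis), with circles for siMK5 and squares for siCon. Dashed lines mark 1.5-fold. Squares pass them in 15 of the carriers drawn and circles in 1.

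Among the carriers that supply ATP synthesis, SLC25A3, SLC25A5, SLC25A6 and SLC25A24 fell. SLC25A4, SLC25A5 and SLC25A6 encode the ADP/ATP carriers, which send matrix ATP out in exchange for cytosolic ADP, and SLC25A3 encodes the phosphate carrier. Of the 7 ADP/ATP, phosphate and ATP-Mg/phosphate carriers tested, 4 fell, none rose and 3 did not pass, with a median log2 fold change of −0.38. Among all tested genes 22.5% were called higher and 23.7% lower, and no role was tested as a set. SLC25A6 (ENSG00000169100) was at 296, 264 and 263 CPM in siMK5 replicates 1, 2 and 3, against 768, 598 and 653 CPM in siCon. It fell 2.45-fold, or −1.29 ± 0.13 on the log2 scale (edgeR adjusted p = 0.000555), and every siMK5 library lay below every siCon library. SLC25A5 (ENSG00000005022), the isoform of dividing cells, was at 162, 155 and 156 CPM in siMK5 and 295, 269.6 and 283 CPM in siCon. Its groups did not overlap either, and it fell by 0.84 ± 0.09 (edgeR adjusted p = 0.000791). SLC25A3 (ENSG00000075415) was at 681, 593 and 613 CPM in siMK5 and 878, 808 and 775 CPM in siCon. Its smaller fall of 0.38 ± 0.11 (edgeR adjusted p = 0.0247) did not pass without siMK5 replicate 2 (adjusted p = 0.1201), siMK5 replicate 3 (0.106) or siCon replicate 2 (0.0628), in edgeR.

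SLC25A4 (ENSG00000151729), the ADP/ATP carrier of heart and muscle, did not pass. Its level was 68.2, 53.3 and 53.8 CPM in siMK5 and 56.7, 41.5 and 46.9 CPM in siCon, with overlapping groups and a log2 fold change in edgeR of 0.27 ± 0.16 (adjusted p = 0.207). Without siCon replicate 1 it rose by 0.41 in edgeR. The difference of log2(CPM + 0.5) between SLC25A5 and SLC25A4 within a library was 1.24, 1.53 and 1.53 in siMK5 replicates 1, 2 and 3 and 2.37, 2.68 and 2.58 in siCon. It was lower in all siMK5 libraries, and its mean shifted by −1.11. The difference between SLC25A6 and SLC25A5 was 0.87, 0.77 and 0.75 in siMK5 and 1.38, 1.15 and 1.204 in siCon, a shift of −0.45. The 3 ADP/ATP carriers are close relatives with many processed pseudogenes, and SLC25A6 lies in the pseudoautosomal region, so reads could be split or dropped between copies. The 39 rows of SLC25 pseudogenes held 23 counts in all libraries together, with no value above 3.

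The ATP-Mg/phosphate carriers are switched by calcium and adjust the adenine nucleotide pool of the matrix. Of 3 tested, SLC25A24 passed. SLC25A24 (ENSG00000085491) was at 66.5, 59.01 and 59.99 CPM in siMK5 and 134, 114 and 110.1 CPM in siCon. All siMK5 libraries were lower, by 1.93-fold in the fit (−0.95 ± 0.12, edgeR adjusted p = 0.00114). SLC25A23 (ENSG00000125648) was at 137, 137 and 127 CPM in siMK5 and 99.8, 121 and 108 CPM in siCon. Its siMK5 libraries were all higher, but its log2 fold change of 0.29 ± 0.11 did not pass over all libraries (edgeR adjusted p = 0.0677). Over 14 alternatives its adjusted p ran from 0.00842 to 0.189, and it passed upward in 4 of them, which were DESeq2, library totals, without siCon replicate 1 and without replicate 1 of both groups. The within-library difference of SLC25A24 and SLC25A23 was −1.04, −1.21 and −1.07 in siMK5 and 0.42, −0.08 and 0.02 in siCon, a shift of −1.23. SLC25A25 (ENSG00000148339) was at 21.3, 13.8 and 14.7 CPM in siMK5 and 12.8, 16.7 and 19.9 CPM in siCon, and its 0.01 ± 0.23 did not pass (edgeR adjusted p = 0.967). Its siMK5 replicate 1 was the highest library and its siCon replicate 1 the lowest, so that the 3 replicate pairs differed by 0.71, −0.27 and −0.42 on log2(CPM + 0.5). Without replicate 1 of both groups SLC25A25 fell by 0.35 ± 0.102. The overlapping antisense gene SLC25A25-AS1 rose by 2.304 ± 0.296 (edgeR adjusted p = 0.00131), and the sources used here do not say whether counting used strand. The difference between SLC25A25 and SLC25A24 was −1.62, −2.06 and −1.99 in siMK5 and −3.34, −2.74 and −2.44 in siCon, a shift of 0.95 that shares SLC25A24 with the pair before.

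Summed over the 41 carriers, the level was 2501, 2372 and 2382 CPM in siMK5 replicates 1, 2 and 3 and 3310, 2947 and 3006 CPM in siCon. The mean was 2418 ± 71.7 CPM in siMK5 and 3087 ± 195 CPM in siCon (SD, n = 3 each), a ratio of 0.783 (exact permutation test, two-sided, p = 0.1, the smallest p that 3 against 3 libraries allow). SLC25A3, SLC25A5 and SLC25A6 together held 45.6%, 42.7% and 43.3% of the carriers' counts in siMK5 and 58.6%, 56.9% and 56.9% in siCon. The other 38 carriers summed to 1361, 1360.0 and 1349.9 CPM in siMK5 and to 1369.6, 1271 and 1295 CPM in siCon, with overlapping groups. The overlap came from siCon replicate 1, since siCon replicates 2 and 3 lay below every siMK5 library. As a net, the lower sum in siMK5 thus lay in these 3 genes, while single carriers among the other 38 fell, such as SLC25A24, or rose, such as SLC25A38.

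**Figure D3:**
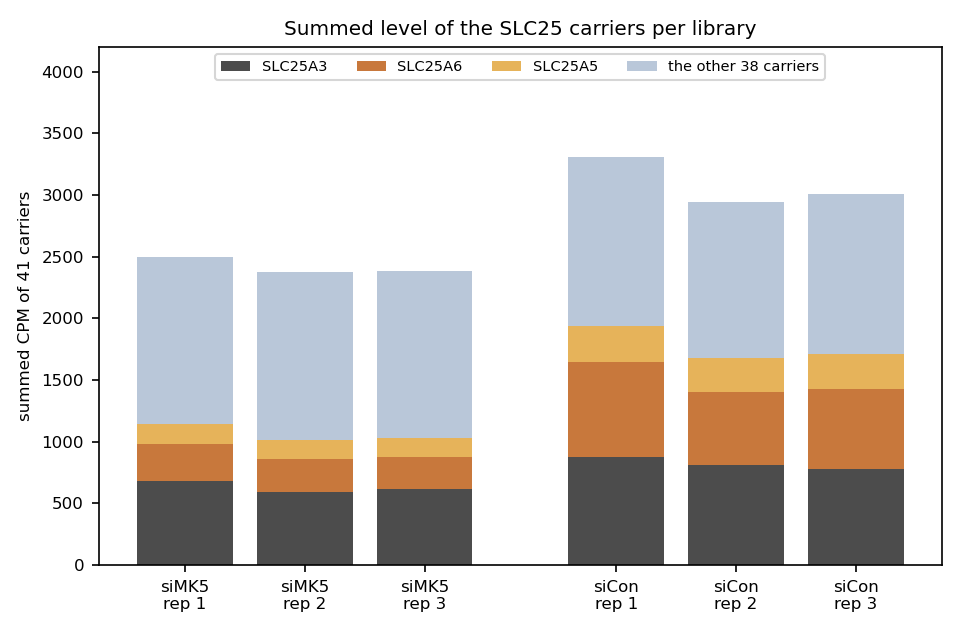
Summed CPM of the 41 carriers (y axis) in each library (x axis, siMK5 left and siCon right), divided into SLC25A3, SLC25A6, SLC25A5 and the other 38 carriers. The total is between 2372 and 2501 CPM in siMK5 and between 2947 and 3310 CPM in siCon, and the top segment of the bars has overlapping groups.

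Per length of annotated exon, SLC25A6 led in both groups, at 127 ± 8.73 CPM per kilobase in siMK5 and 311 ± 40.0 in siCon, followed by SLC25A5 at 105 ± 2.74 and 188 ± 8.44 and SLC25A3 at 70.7 ± 5.17 and 92.2 ± 5.904 (mean ± SD, n = 3 each). The length joins all annotated exons of a gene, 8896 bases for SLC25A3, 2164 for SLC25A6 and 1500 for SLC25A5. It may exceed that of the transcripts present, which was not tested, so the order is not one of transcript abundance. By CPM alone SLC25A3 was the highest carrier, at a mean of 629 in siMK5 and 820 in siCon. SLC25A1 was the fourth, at 47.3 ± 3.16 CPM per kilobase in siMK5 and 53.7 ± 8.25 in siCon. The largest moves in this order were SLC25A13, which ranked 23 of 41 in siMK5 and 10 in siCon, and SLC25A14, which ranked 18 in siMK5 and 28 in siCon. SLC25A38 ranked 5 in siMK5 and 11 in siCon. The lowest per length was SLC25A18 in siMK5, at 0.1101 ± 0.0239 CPM per kilobase, and SLC25A27 in siCon, at 0.0675 ± 0.0288.

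Among the di- and tricarboxylate carriers, 3 of 6 fell, none rose and 3 did not pass, with a median log2 fold change of −0.39. This stands beside 22.5% of all tested genes called higher and 23.7% called lower. SLC25A10 (ENSG00000183048), which exchanges malate and succinate for phosphate, had the largest fall of all carriers. Its level was 1.46, 1.43 and 1.99 CPM in siMK5 and 7.32, 5.42 and 6.91 CPM in siCon, a fall of 4.02-fold (−2.01 ± 0.23, edgeR adjusted p = 0.000938). The groups were far apart, although in GENCODE 46.6% of the exon length of SLC25A10 is shared with a second gene model on the same strand, and such reads may have been left out of the count. SLC25A11 (ENSG00000108528), the oxoglutarate and malate carrier of the malate-aspartate shuttle, was at 36.5, 43.6 and 44.9 CPM in siMK5 and 61.1, 57.7 and 66.8 CPM in siCon. It was lower in all siMK5 libraries and fell by 0.57 ± 0.12 (edgeR adjusted p = 0.00921). SLC25A35 (ENSG00000125434), whose substrate is not settled, was at 1.42, 2.295 and 2.22 CPM in siMK5 and 3.75, 3.21 and 3.11 CPM in siCon. Its fall of 0.76 ± 0.25 (edgeR adjusted p = 0.0452) rests on low counts. It did not pass in edgeR with replicate number as a block (adjusted p = 0.0701), nor when any single library other than siCon replicate 1 was left out (adjusted p from 0.0813 to 0.09497). In GENCODE 33.2% of its exon length is shared with RANGRF on the opposite strand.

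The citrate carrier gene SLC25A1, which sends citrate out for lipid synthesis, did not pass. SLC25A1 gave −0.18 ± 0.14 (edgeR adjusted p = 0.296), at 99.1 ± 6.63 CPM in siMK5 and 113 ± 17.3 CPM in siCon. SLC25A21, the carrier of oxoadipate, gave −0.21 ± 0.36 and SLC25A34 gave 0.71 ± 0.44, and neither passed (edgeR adjusted p = 0.661 and 0.225). Both lay at or below 2.05 CPM in every library.

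Of 10 amino acid and acylcarnitine carriers 1 rose, 1 fell and 8 did not pass, with a median log2 fold change of −0.03. All tested genes were called higher in 22.5% and lower in 23.7%. SLC25A38 (ENSG00000144659), which brings glycine into the matrix for the first step of heme synthesis, had the largest rise of all carriers. Its level was 82.8, 77.6 and 80.4 CPM in siMK5 replicates 1, 2 and 3 and 29.1, 33.2 and 37.1 CPM in siCon. It rose 2.42-fold (1.28 ± 0.12, edgeR adjusted p = 0.000479), and every siMK5 library was far above every siCon library. SLC25A13 (ENSG00000004864) encodes citrin, a calcium-regulated aspartate and glutamate carrier of the malate-aspartate shuttle. Its level was 18.4, 17.04 and 16.97 CPM in siMK5 and 34.6, 54.8 and 58.6 CPM in siCon. It fell 2.82-fold (−1.496 ± 0.21, edgeR adjusted p = 0.001704), and by 1.73 ± 0.08 without replicate 1 of both groups, and siCon replicate 1 was the lowest control.

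SLC25A12 (ENSG00000115840), which encodes aralar, the other aspartate and glutamate carrier, did not pass. Its level was 22.2, 23.4 and 23.4 CPM in siMK5 and 15.7, 30.1 and 32.4 CPM in siCon, with siCon replicate 1 below and replicates 2 and 3 above all siMK5 libraries. The log2 fold change was −0.18 ± 0.26 (edgeR adjusted p = 0.602), and SLC25A12 fell by 0.41 ± 0.08 without replicate 1 of both groups. The difference of log2(CPM + 0.5) between SLC25A13 and SLC25A12 was −0.26, −0.45 and −0.45 in siMK5 and 1.11, 0.86 and 0.85 in siCon, a shift of −1.33. Here siCon replicate 1 was the highest control.

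The remaining amino acid carriers did not pass with all 6 libraries. The glutamate carrier gene SLC25A22 gave −0.36 ± 0.14 and the ornithine and citrulline carrier gene SLC25A15 gave −0.33 ± 0.11 (edgeR adjusted p = 0.0754 and 0.0509), and in both every siMK5 library was lower. Over 14 alternatives the adjusted p of SLC25A15 ran from 0.00190 to 0.183, and it passed downward in 4, which were DESeq2, RLE size factors, without siCon replicate 1 and without replicate 1 of both groups. SLC25A29, a carrier of basic amino acids, gave −0.19 ± 0.195 with all libraries and fell by 0.396 ± 0.08 without replicate 1 of both groups (edgeR adjusted p = 0.443 with all libraries). The carnitine and acylcarnitine carrier gene SLC25A20 gave 0.45 ± 0.32 (edgeR adjusted p = 0.274), at 11.02, 13.1 and 14.0 CPM in siMK5 and 5.06, 10.8 and 11.96 CPM in siCon. SLC25A44, which carries branched-chain amino acids, gave 0.13 ± 0.18, SLC25A45 gave 0.44 ± 0.48, and SLC25A18, a second glutamate carrier, gave 0.19 ± 0.46 at or below 0.63 CPM in every library (edgeR adjusted p from 0.755 down to 0.484).

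The promoters of SLC25A38, SLC25A46 and SLC25A13 are shown because they are the carriers past the threshold that hold an E-box, the letters CACGTG, which factors such as MYC, USF and TFE3 can bind. The sequences are from RefSeq on GRCh38.p14, 250 bases before to 50 after the annotated start, 5′ to 3′ on the gene's strand, with the E-box in capitals and its position counted from the start. The SLC25A38 window is chr3:39383120-39383419 on the plus strand, with its E-box at −44. That of SLC25A46, an outer membrane protein whose values follow, is chr5:110738757-110739056 on the plus strand, with its E-box at −47. That of SLC25A13, which fell, is chr7:96322049-96322348 on the minus strand, with its E-box at −154.
SLC25A38: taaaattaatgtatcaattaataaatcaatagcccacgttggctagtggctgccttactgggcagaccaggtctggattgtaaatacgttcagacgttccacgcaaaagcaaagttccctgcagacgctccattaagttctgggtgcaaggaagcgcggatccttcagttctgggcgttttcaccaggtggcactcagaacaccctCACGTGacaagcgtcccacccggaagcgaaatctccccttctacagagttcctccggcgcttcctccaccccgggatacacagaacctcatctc
SLC25A46: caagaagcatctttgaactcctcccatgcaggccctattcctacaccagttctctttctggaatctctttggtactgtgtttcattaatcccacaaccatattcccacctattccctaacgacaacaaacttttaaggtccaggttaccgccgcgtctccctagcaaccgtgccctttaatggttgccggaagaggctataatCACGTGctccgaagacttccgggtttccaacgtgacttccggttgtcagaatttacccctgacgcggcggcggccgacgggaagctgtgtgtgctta
SLC25A13: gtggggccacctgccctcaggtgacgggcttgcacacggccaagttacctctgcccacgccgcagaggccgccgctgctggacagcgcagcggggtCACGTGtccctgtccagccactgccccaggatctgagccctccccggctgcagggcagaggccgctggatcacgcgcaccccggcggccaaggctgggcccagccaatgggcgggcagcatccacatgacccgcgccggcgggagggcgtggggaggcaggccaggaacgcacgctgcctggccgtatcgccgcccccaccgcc

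A promoter was at hand for 35 carriers, and 5 motifs were searched on both strands. The E-box was found in 6 of the 35, and in 7.43% of all 27305 promoters of the same length. It was in 2 of 4 carriers that rose, 1 of 9 that fell and 3 of 21 that did not pass, SLC25A33 at −26, SLC25A36 at −143 and SLC25A51 at −59, and not in SLC25A27, which was not tested. The TEAD motif GGAATG, read by the partners of YAP, was in 2 of 35 (SLC25A23 and SLC25A28) and in 14.0% of all promoters. TGATGNAA, a composite site of ATF4 and CHOP, was in SLC25A11 alone and in 3.67% of all promoters. The CREB motif TGACGTNA was in SLC25A25, SLC25A33 and SLC25A36 and in 3.18% of all promoters. GCATGCGC, read by NRF1, was in none of the 35 and in 3.27% of all promoters. No matches of different motifs overlapped. A match describes the letters in this window and is not evidence that a factor binds.

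Of 9 nucleotide and cofactor carriers, 1 rose, 1 fell and 7 did not pass, with a median log2 fold change of 0.28. The shares of all tested genes were 22.5% higher and 23.7% lower. SLC25A42 (ENSG00000181035), which brings coenzyme A into the matrix, was at 14.5, 14.9 and 14.2 CPM in siMK5 and 3.26, 7.56 and 7.53 CPM in siCon. It rose 2.38-fold (1.25 ± 0.31, edgeR adjusted p = 0.0165) and all siMK5 libraries were above all siCon libraries, of which replicate 1 was the lowest. The call was narrowly lost without siMK5 replicate 1 (edgeR adjusted p = 0.0502) or siMK5 replicate 2 (0.0532), and without replicate 1 of both groups the rise was 0.95 ± 0.11. SLC25A17 (ENSG00000100372), the peroxisomal carrier of coenzyme A, FAD and NAD, was at 15.7, 16.2 and 15.9 CPM in siMK5 and 28.9, 26.1 and 30.6 CPM in siCon. Its groups were apart and it fell by 0.84 ± 0.12 (edgeR adjusted p = 0.00175).

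SLC25A36 and SLC25A33 carry pyrimidine nucleotides for mitochondrial DNA and RNA synthesis. SLC25A36 was at 121, 107 and 98.5 CPM in siMK5 and 113, 62.2 and 52.5 CPM in siCon, with siCon replicate 1 among the siMK5 libraries. Its 0.52 ± 0.28 did not pass (edgeR adjusted p = 0.171), and SLC25A36 rose by 0.85 ± 0.08 without replicate 1 of both groups. SLC25A33 gave 0.304 ± 0.18 with all libraries (edgeR adjusted p = 0.203) and rose by 0.37 ± 0.11 without replicate 1 of both groups. The within-library difference between SLC25A36 and SLC25A33 averaged 2.86 ± 0.104 in siMK5 and 2.57 ± 0.396 in siCon, with overlapping groups. The NAD carrier gene SLC25A51 gave 0.28 ± 0.13 (edgeR adjusted p = 0.115), with all siMK5 libraries higher, and SLC25A16 gave 0.48 ± 0.302 (edgeR adjusted p = 0.232). SLC25A32, which brings folate into the matrix, gave 0.19 ± 0.22 (edgeR adjusted p = 0.504), with siCon replicate 1 the highest of all libraries. In GENCODE 69.7% of its exon length is shared with a second gene model on the same strand, and such reads may have been left out of the count. SLC25A26, the carrier of S-adenosylmethionine, gave −0.35 ± 0.19 (edgeR adjusted p = 0.162).

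Of 4 iron and glutathione carriers 1 rose and 3 did not pass, with a median log2 fold change of −0.11, beside 22.5% of all tested genes called higher. SLC25A37 (ENSG00000147454) and SLC25A28 (ENSG00000155287) encode mitoferrin 1 and mitoferrin 2, which import iron for heme and iron-sulfur clusters. SLC25A37 was at 112, 135 and 128 CPM in siMK5 and 106, 82.2 and 75.2 CPM in siCon. All siMK5 libraries were higher and it rose by 0.51 ± 0.15 (edgeR adjusted p = 0.0324), while its replicate pairs differed by 0.08, 0.71 and 0.77 on log2(CPM + 0.5). The call was lost with replicate number as a block (edgeR adjusted p = 0.0643) and without siMK5 replicate 2 or 3 or siCon replicate 2 or 3 (edgeR adjusted p from 0.1003 to 0.125), and SLC25A37 rose by 0.74 ± 0.07 without replicate 1 of both groups. SLC25A28 was at 37.9, 36.2 and 37.8 CPM in siMK5 and 56.2, 32.6 and 34.8 CPM in siCon, where replicate 1 was the highest of all. Its −0.14 ± 0.21 did not pass (edgeR adjusted p = 0.612). Within a library SLC25A37 exceeded SLC25A28 on log2(CPM + 0.5) by 1.55, 1.88 and 1.75 in siMK5 and 0.91, 1.32 and 1.102 in siCon, a shift of 0.62. SLC25A39 and SLC25A40, which import glutathione, gave −0.08 ± 0.12 and −0.33 ± 0.205 (edgeR adjusted p = 0.627 and 0.229), and their within-library difference overlapped between groups.

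All 4 tested carriers of the uncoupling-protein-like and unassigned set passed, 2 in each direction, beside 46.2% of all tested genes called. SLC25A46 (ENSG00000164209), an outer membrane protein of mitochondrial dynamics, was at 112, 119.7 and 122 CPM in siMK5 and 64.98, 62.5 and 60.5 CPM in siCon. It rose 1.89-fold (0.92 ± 0.09, edgeR adjusted p = 0.000627), with little spread in either group. SLC25A14 (ENSG00000102078), an uncoupling-protein-like carrier, was at 20.1, 18.5 and 20.7 CPM in siMK5 and 10.7, 10.8 and 10.5 CPM in siCon. It rose by 0.89 ± 0.12 (edgeR adjusted p = 0.00169), and its siCon libraries lay close together. SLC25A30 (ENSG00000174032), the closest relative of SLC25A14, went the other way, at 15.1, 16.6 and 16.4 CPM in siMK5 and 44.8, 24.8 and 23.3 CPM in siCon. SLC25A30 fell by 0.95 ± 0.26 (edgeR adjusted p = 0.0223), with the highest level in siCon replicate 1, and by 0.54 ± 0.09 without replicate 1 of both groups. Its call was lost without siMK5 replicate 1, 2 or 3 (edgeR adjusted p = 0.0805, 0.0696 and 0.0699).

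The within-library difference of SLC25A30 and SLC25A14 was −0.39, −0.15 and −0.33 in siMK5 and 2.02, 1.17 and 1.12 in siCon, a shift of −1.73, the largest of the 9 pairs compared. SLC25A43 (ENSG00000077713), whose substrate is not settled, was at 15.3, 16.2 and 15.3 CPM in siMK5 and 21.7, 19.1 and 20.8 CPM in siCon. All siMK5 libraries were lower and SLC25A43 fell by 0.397 ± 0.12 (edgeR adjusted p = 0.0306). The call was lost with replicate number as a block (edgeR adjusted p = 0.0503) and when any single library other than siCon replicate 1 was left out (edgeR adjusted p from 0.0521 to 0.1201). SLC25A27, an uncoupling-protein-like carrier mainly of brain, held between 3 and 25 counts per library and was not tested with 6 libraries.

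**Figure D4:**
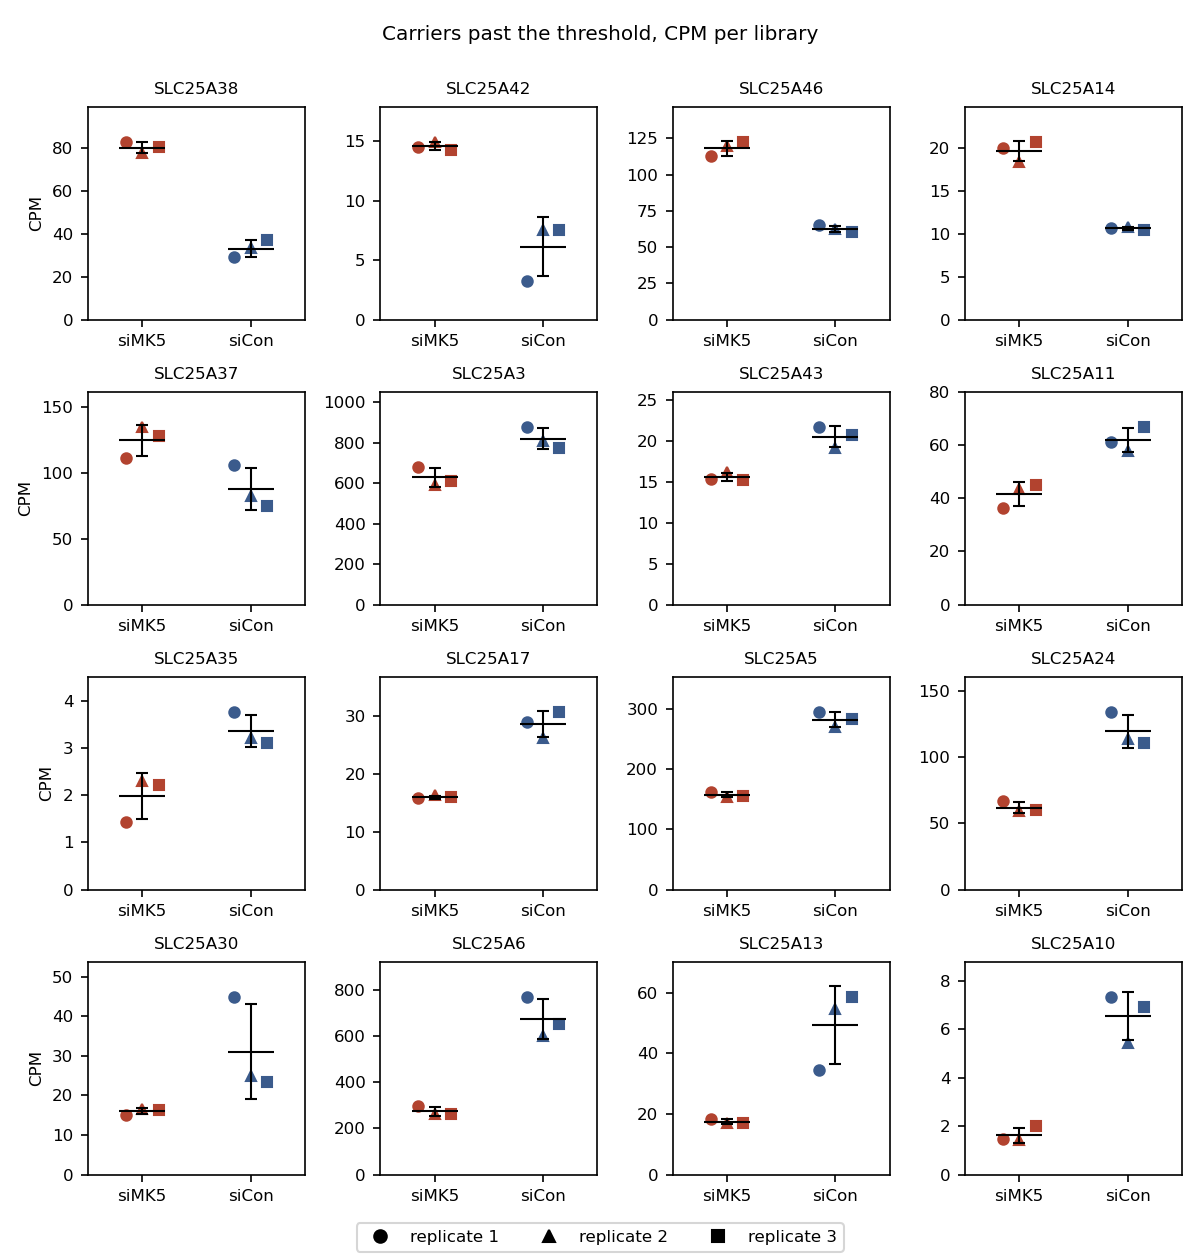
CPM per library (y axis) of the 16 carriers that passed, with siMK5 left of siCon in each panel. Symbols are replicates 1, 2 and 3, and the horizontal line and bar are mean ± SD (n = 3). In every panel the siMK5 libraries lie on one side of the siCon libraries, and siCon replicate 1 stands off in SLC25A42, SLC25A13 and SLC25A30.

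Across the pairs of related carriers, 7 of 9 had within-library differences that did not overlap between siMK5 and siCon. Groups were also apart in 60.4% of all tested single genes, and the rate for other gene pairs was not tested. The pairs are not independent, since SLC25A5 and SLC25A24 recur, and every pair whose groups were apart holds a carrier that passed by itself. Each of the 7 reached the smallest p that 3 against 3 libraries allow (exact permutation test, two-sided, p = 0.1; 0.129 after Benjamini-Hochberg adjustment over the 9 pairs), so none can pass 0.05 in this design. SLC25A36 with SLC25A33 gave p = 0.3 and SLC25A40 with SLC25A39 gave p = 0.8 in the same exact test. The differences compare counts, which depend on transcript length, so the shifts between groups are read and not which carrier of a pair is the more abundant.

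**Figure D5:**
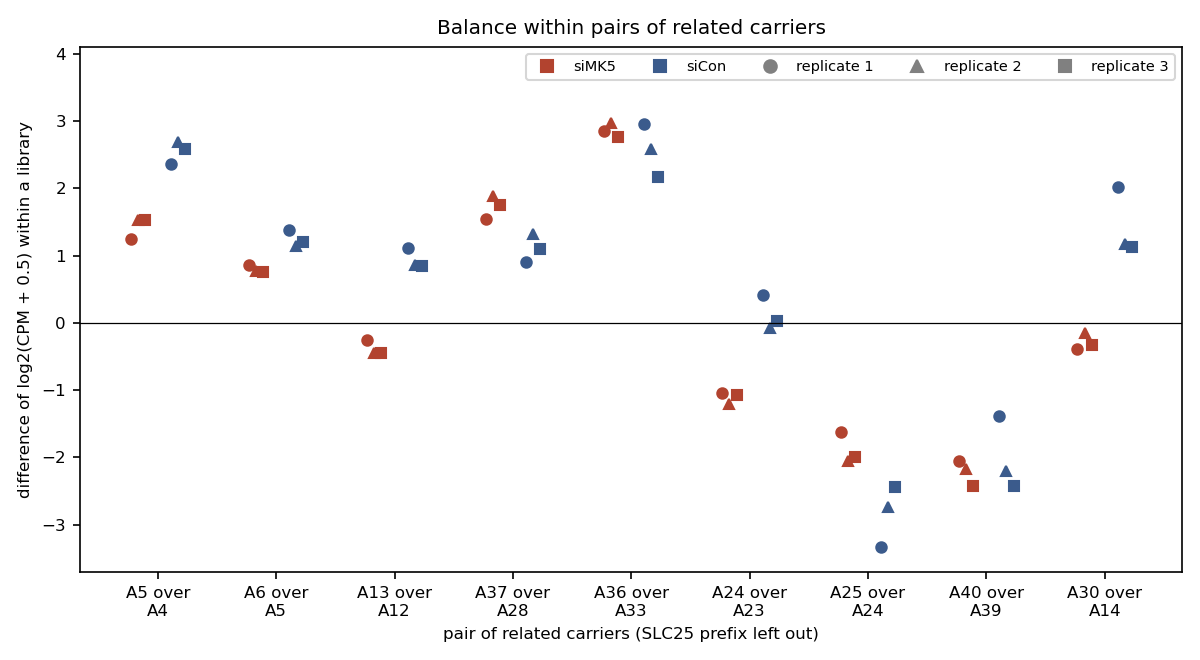
Difference of log2(CPM + 0.5) between the carriers of a pair within each library (y axis) for 9 pairs (x axis), with siMK5 left of siCon and symbols for replicates 1, 2 and 3. The groups are apart in 7 pairs, and SLC25A30 over SLC25A14 shifts the most, by −1.73.

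The family members that carry other symbols were not counted among the 41. UCP2, an uncoupling protein, was at 5.11, 5.56 and 5.05 CPM in siMK5 and 73.6, 46.9 and 42.1 CPM in siCon. It fell 10.3-fold (−3.37 ± 0.24, edgeR adjusted p = 0.000231), further than any SLC25A gene. MTCH1, an outer membrane member of the family, fell by 0.82 ± 0.16, while its relative MTCH2 gave 0.00 ± 0.09 (edgeR adjusted p = 0.00683 and 0.999). UCP3 did not pass (0.36 ± 0.34, edgeR adjusted p = 0.407), and UCP1 had no count in any library.

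Of 15 tested genes of the machinery that imports carriers into mitochondria, 2 rose, 6 fell and 7 did not pass, with a median log2 fold change of −0.34. Beside the 46.2% of all tested genes called, 22.5% higher and 23.7% lower, the share called here in either direction was near that of genes at large. By direction 6 of 15 were lower and 2 of 15 higher, and the list was not tested as a set. With library totals alone, or with no filter on low counts, 4 were lower and 2 higher. These settings called 46.6% and 27.1% of all tested genes. Leaving out 1 library or replicate 1 of both groups gave 1 to 4 higher and 3 to 8 lower. The most were higher without siCon replicate 1 or without replicate 1 of both groups. Of all tested genes 30.5% to 75.8% were called in these fits, with 64.4% without siCon replicate 1 and 75.8% without replicate 1 of both groups. TIMM8A and TIMM10, chaperones of the intermembrane space, fell by 1.41 ± 0.203 and 0.94 ± 0.17, and AGK, a lipid kinase and subunit of the TIM22 complex, by 0.74 ± 0.13 (edgeR adjusted p from 0.00195 to 0.00487). TIMM29, another TIM22 subunit, rose by 1.02 ± 0.21 (edgeR adjusted p = 0.00742).

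Of 18 other mitochondrial transporters and channels, 2 rose, 4 fell and 12 did not pass, with a median of −0.10, beside 22.5% higher and 23.7% lower among all tested genes. With the same libraries left out in turn the counts were 1 to 5 higher and 4 to 8 lower. They were again most without siCon replicate 1, where 32.3% of all tested genes were called higher and 32.1% lower, or without replicate 1 of both groups (37.9% and 37.8%). MPC1, a subunit of the mitochondrial pyruvate carrier, rose by 1.12 ± 0.16, at 27.7, 29.98 and 34.1 CPM in siMK5 and 16.7, 12.1 and 13.5 CPM in siCon (edgeR adjusted p = 0.00202). The falls with the largest size were in VDAC3, an outer membrane channel (−0.89 ± 0.11), MCU, the calcium uniporter (−0.77 ± 0.13), and ABCB10, which stabilizes mitoferrin 1 (−0.65 ± 0.15), with edgeR adjusted p from 0.00105 to 0.0102. Among enzymes on either side of the carriers, 10 of 24 rose, 2 fell and 12 did not pass, with a median of 0.14, where 46.2% of all tested genes were called, 22.5% higher and 23.7% lower. The leave-outs gave 7 to 15 higher and 1 to 7 lower. There were 6 lower without siCon replicate 1 and 7 without replicate 1 of both groups, beside 32.1% and 37.8% of all tested genes. PCK2, mitochondrial phosphoenolpyruvate carboxykinase, rose by 1.65 ± 0.19, PYCR1, of proline synthesis, by 1.38 ± 0.16, and SHMT2, which interconverts serine and glycine in the matrix, by 1.13 ± 0.22, while GPD2, of the glycerol phosphate shuttle, fell by 1.003 ± 0.19 (edgeR adjusted p from 0.000834 to 0.00606). In siCon replicates 1, 2 and 3 SHMT2 was at 255, 148 and 152 CPM and GPD2 at 113, 74.8 and 73.2 CPM, both highest in replicate 1.

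Of 10 regulators of mitochondrial biogenesis, 2 rose, 3 fell and 5 did not pass, with a median of −0.40. These shares were near the 22.5% higher and 23.7% lower of all tested genes. The number lower was 1 without siMK5 replicate 1, 2 or 3, 6 without replicate 1 of both groups, and 5 with replicate number as a block. Of all tested genes 37.1%, 30.5% and 31.2% were called in either direction without siMK5 replicates 1, 2 and 3. The share was 75.8% without replicate 1 of both groups (37.8% lower) and 47.3% with the block. TFAM, the packaging factor of mitochondrial DNA, fell by 1.31 ± 0.21 (edgeR adjusted p = 0.00305), at 36.1 ± 0.409 CPM in siMK5 and 89.4 ± 27.8 CPM in siCon (SD, n = 3 each). In siCon replicate 1 TFAM was at 121 CPM, above siCon replicates 2 and 3 at 75.2 and 71.5 CPM. GABPA, an activator of genes for respiration, fell by 0.59 ± 0.16 (edgeR adjusted p = 0.0196). The nuclear receptor gene ESRRA rose by 1.15 ± 0.18 and POLRMT, the mitochondrial RNA polymerase gene, by 0.74 ± 0.11 (edgeR adjusted p = 0.00259 and 0.00259). Of the 13 mitochondrially encoded genes 1 rose, MT-ND1 by 0.46 ± 0.12 (edgeR adjusted p = 0.01699), none fell, and their median was 0.12. Among all tested genes 22.5% were called higher and 23.7% lower. MT-ND1 did not pass without siMK5 replicate 3 (edgeR adjusted p = 0.0728), siCon replicate 2 (0.0544) or siCon replicate 3 (0.0611), nor did GABPA without siMK5 replicate 1, 2 or 3 (edgeR adjusted p from 0.0623 to 0.0769).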

How the data were processed

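RNA was measured in 6 libraries, 3 per group, made with the TruSeq V2 kit from total RNA, per the labels' protocols. Tools in the submitters' processing notes are HTSeq 0.9.1, TopHat2 2.1.1, Trimmomatic 0.36 and FastQC, with build GRCh37, without an order or settings. The deposited values are whole-number counts per gene, not normalized by the authors: the deposit calls them CPM, but every value is a whole number and the library totals differ. Libraries held 27188074 to 28236773 counts, and the counts' precision is limited mainly for carriers under 1 CPM.

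With edgeR 4.0.16 (R 4.3.3), 13431 genes were left by filterByExpr at a minimum count of 10 and a minimum total of 15. The fit was scaled by TMM and used the quasi-likelihood test of siMK5 against siCon without a block, two-sided, with Benjamini-Hochberg adjustment over all genes and a threshold of 0.05. A standard error is the size of the log2 fold change over the square root of F. On simulated counts for this comparison (13252 genes tested, 99 of them changed at each size) the step recovered 52.5% of genes changed 2-fold and 96% of those changed 4-fold, with 5 false calls. In the data 46.2% of tested genes were called, so these rates do not carry over directly to this comparison. Pair differences used log2(CPM + 0.5) and the exact permutation test.

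Members and lists were chosen with earlier results of these data known. Every carrier but 1, whose values are not reported here, is named; values per library are given for the carriers that passed, the most abundant and those of pairs whose groups were apart, and up to 4 passing genes for each other list. Values per library of SLC25A20 and SLC25A36, and MTCH2 and UCP3, were added after they were seen. Deviations from group means correlated at 0.258, 0.206 and 0.248 (replicates 1, 2 and 3) between libraries of the same replicate number. They correlated at 0.182 and 0.151 between replicates 2 and 3 of different groups, so that the numbers mainly set replicate 1 apart. The labels name no shared batch or pairing, and the main fit and the exact tests took the libraries as unpaired. Since every same-number value is over 0.1, the numbers were used as pairs in the replicate block and in the replicate pair differences. Alternatives were RLE, upper-quartile and no scaling factors, no filter, DESeq2 1.42.0, limma 3.58.1 (limma-trend), a replicate block, and leaving out each library or replicate 1 of both groups; pairs were repeated with log2(CPM + 2), the sum with library totals alone, and the carriers' counts at a mean of at least 100. Exon lengths and overlaps are from GENCODE 29 (41 of 41 matched by identifier) and promoters from RefSeq GRCh38.p14, matched by symbol, while the counts were made on GRCh37.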

Additional observations from a re-analysis of the deposited data

How the results depend on the processing

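Of the 16 carriers called with 6 libraries, 10 kept their call and direction in all 14 alternatives, SLC25A5, SLC25A6, SLC25A10, SLC25A11, SLC25A13, SLC25A17 and SLC25A24 downward and SLC25A14, SLC25A38 and SLC25A46 upward. No called carrier changed direction in any alternative. The other 6, SLC25A3, SLC25A30, SLC25A35, SLC25A37, SLC25A42 and SLC25A43, lost the call in 2 to 9 of the 14.
Depth limits SLC25A18, SLC25A21, SLC25A27 and SLC25A34, which lay at or below 2.05 CPM in every library.

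Leaving out each library, or replicate 1 of both groups, gave 4167 to 10372 genes changed (6206 with all libraries), 2064 to 5195 genes higher (3020) and 2103 to 5177 genes lower (3186). Among the carriers it gave 3 to 15 higher (5) and 7 to 17 lower (11), and in the 5 lists of nuclear genes set beside them together 11 to 27 higher (16) and 11 to 31 lower (17). The SLC25 median log2 fold change, −0.16, ran from −0.18 to −0.018 in these fits, and was −0.054 with library totals alone, −0.10 in limma-trend and −0.11 with the replicate block. With library totals alone the median of all genes moved by 0.10. The replicate block lost the calls of SLC25A35, SLC25A37 and SLC25A43 and changed no other carrier's call. Among the carriers that did not pass, 7 changed sign in 1 or more alternatives. Of these, SLC25A25 passed downward without replicate 1 of both groups. The leave-outs gave −0.16 to 0.46 for SLC25A18, −0.52 to 0.0029 for SLC25A21, −0.35 to 0.15 for SLC25A25, −0.31 to 0.15 for SLC25A28, −0.0088 to 0.47 for SLC25A32 and −0.071 to 0.21 for SLC25A44, and library totals gave 0.022 for SLC25A39. The cause of these shifts was not tested.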
